A study of Mus musculus with 6 samples.

Results

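The genes described here encode the enzymes of sterol and fatty acid synthesis and the proteins that govern them through the sterol regulatory element-binding proteins (SREBPs). They were chosen by symbol from a list of 36 genes, and all 36 had 1 row each in the deposited table of 55401 genes. The list holds 18 sterol enzymes, 12 fatty acid enzymes, 5 regulators and the sterol carrier gene Stard4. RNA-seq had been made of 3 libraries of mouse cells treated with neutrophil extracellular traps (NETs, released chromatin fibres coated with neutrophil proteins) and of 3 libraries of untreated control cells. Both groups are labelled wild type, and no group carries another treatment or allele in the labels. The labels call the cells bone marrow-derived macrophages (BMDM), whereas the sample titles carry the name BV2, an immortalised mouse microglial line, and which of them was used cannot be told from the labels. The sources used here do not state the dose or duration of NETs, nor whether replicates were separate cultures or animals. The p-values therefore reflect only how these libraries varied, which may be technical.

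Cells make cholesterol from acetyl-CoA through mevalonate, farnesyl diphosphate, squalene and lanosterol, and they make fatty acids from the same acetyl-CoA by way of malonyl-CoA. SREBPs are transcription factors held in the endoplasmic reticulum with their escort SCAP. When sterols are low SCAP carries them to the Golgi, where proteases free the active factor. When sterols are ample the INSIG proteins keep the SCAP-SREBP complex in place. SREBP2 acts mainly on sterol genes and SREBP1 mainly on fatty acid genes, and macrophages are known to change both branches when they are activated.

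Start-site sequences are shown for 3 members, because they carry the letters through which SREBPs are known to bind and because these members did not move alike. RefSeq (build GRCm38.p6) gave 39 promoter windows, each of 250 bases before and 50 after a start, for 29 of the 36 members. Each window was searched on both strands for TCACNCCAC, a core of the sterol regulatory element, and for the E-box CACGTG, which SREBPs also bind; these motifs share no match. Capitals mark the match, each line runs 5′ to 3′ on the gene's strand, and bases inside the GENCODE gene were cut off. The windows lie at chr13:119690101-119690350 (plus strand) for Hmgcs1, chr1:169969242-169969455 (minus strand) for Hsd17b7 and chr5:28071162-28071362 (plus strand) for Insig1.
Hmgcs1: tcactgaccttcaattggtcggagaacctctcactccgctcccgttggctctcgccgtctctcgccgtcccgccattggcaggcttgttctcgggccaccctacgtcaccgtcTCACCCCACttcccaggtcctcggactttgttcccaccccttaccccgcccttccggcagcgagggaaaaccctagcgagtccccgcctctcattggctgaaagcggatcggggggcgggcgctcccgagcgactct
Hsd17b7: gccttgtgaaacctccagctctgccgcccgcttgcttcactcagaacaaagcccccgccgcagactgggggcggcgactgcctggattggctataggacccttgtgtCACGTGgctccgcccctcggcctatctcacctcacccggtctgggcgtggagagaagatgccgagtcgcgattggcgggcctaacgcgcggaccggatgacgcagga
Insig1: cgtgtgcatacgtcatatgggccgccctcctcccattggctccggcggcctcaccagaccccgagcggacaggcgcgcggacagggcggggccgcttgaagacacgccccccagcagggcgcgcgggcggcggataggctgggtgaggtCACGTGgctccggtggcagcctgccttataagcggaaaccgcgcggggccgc
Hmgcs1 was the only searched member with the sterol regulatory element core in a window, 1 of 39 windows (2.56%) against 1.24% of all 32851 windows. Fdft1, Sqle, Fdps, Stard4, Scd1, Scd2 and Fads1 had no window and could not be searched. Only exact matches to these letters were sought, so a window without a match may still hold another form of the element. CACGTG stood in 7 of the 39 windows (17.9%, against 7.15% of all), those of Dhcr7, Elovl5, Hsd17b7, Insig1, Sc5d and Scap. Overlapping windows of Scap held the same site, which was thus counted for each of them. The NF-Y box CCAAT was in 64.1% of the members' windows and 37.4% of all windows, and the Sp1 box GGGCGG in 74.4% and 35.7%. Of the members shown, which were picked for moving differently, Hsd17b7 rose, Insig1 fell and Hmgcs1 did not pass the test, as the values below give. Among all members with CACGTG in a window, Dhcr7, Hsd17b7 and Scap were called higher and Insig1 lower. Elovl5 and Sc5d did not pass.

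NETs treatment was accompanied by changes in both directions within sterol synthesis and within fatty acid synthesis. The squalene synthase gene Fdft1 and the reductase gene Hsd17b7 rose more than 2-fold, while the acetyl-CoA synthetase gene Acss2 fell 2.51-fold. The SREBP targets Hmgcs1, Sqle and Fasn did not pass the test. Of the 34 members with enough counts to be tested, 12 rose and 9 fell (edgeR quasi-likelihood test, two-sided, Benjamini-Hochberg adjusted p under 0.05 over all 15272 genes tested, n = 3 per group). That is 61.8% of the tested members, where 52.7% of all tested genes were called, 25.5% higher and 27.2% lower. The groups did not overlap for 23 tested members (67.6%), against 62.4% of all tested genes. NETs-treated libraries lay above in 12 of these members and below in 11, where 29.9% and 32.5% of all tested genes did so. A called change of at least 2-fold was found for 3 members (8.82%), against 19.3% of all tested genes. The median size of the log2 fold change, without its sign, was 0.33 over the members and 0.52 over all genes. The set of all tested genes was not matched to the members in level, and it includes genes with few counts. Whether the level of the members bears on these differences in size was not tested. With scaling by library size only, the split was 8 higher and 12 lower. The 34 tested members had mean levels from 3.76 to 381 CPM, the count relative to the library total after TMM scaling.

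**Figure D1:**
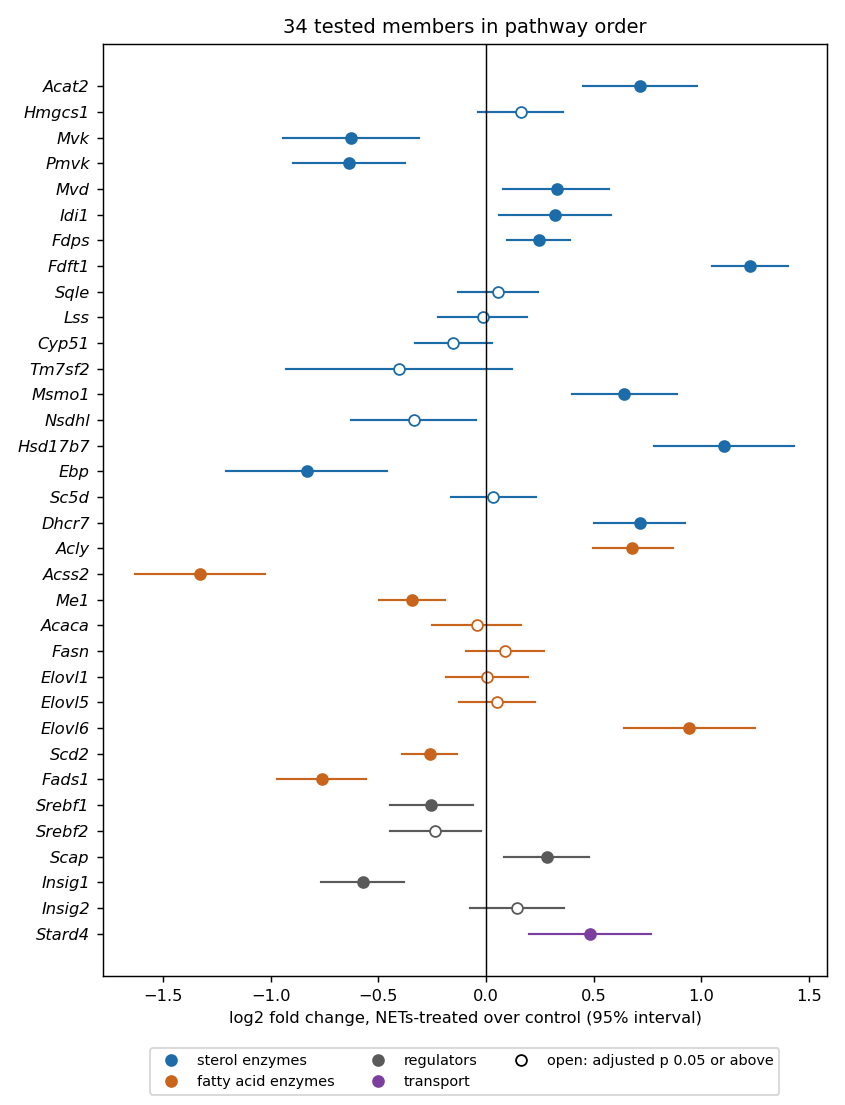
Log2 fold change (horizontal axis, NETs-treated over control) of the 34 tested members in pathway order; points are fitted values, lines 95% intervals unadjusted for multiple tests, filled points passed the test, and colours mark the branch. Called members lie on both sides of 0 in the sterol, fatty acid and regulator groups, from -1.33 for Acss2 to 1.23 for Fdft1.

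The genes of the mevalonate arm, which runs from acetyl-CoA to farnesyl diphosphate, were split between higher and lower. Acat2, the thiolase that joins the first acetyl-CoA units, measured 15.6, 18.4 and 20.5 CPM in control libraries 1 to 3, against 29.6, 29.9 and 30.1 CPM in NETs-treated libraries 1 to 3. All NETs-treated libraries lay above all control libraries, a log2 fold change of 0.72 ± 0.12 (SE; edgeR, adjusted p = 0.000956). Hmgcs1, the synthase of the next step, had 84.4, 88.4 and 84.4 CPM in control and 85.2, 98.6 and 104 CPM in NETs-treated libraries. Its groups overlapped, and its log2 fold change of 0.16 had a 95% interval from -0.04 to 0.36 (adjusted p = 0.153), which includes 0. Without NETs-treated replicate 1, Hmgcs1 passed as higher (log2 fold change 0.26, adjusted p = 0.0123).

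The kinase genes Mvk and Pmvk fell. Mvk, mevalonate kinase, went from 10.7, 11.3 and 11.7 CPM to 7.64, 6.46 and 7.71 CPM, and Pmvk, phosphomevalonate kinase, from 18.4, 18.8 and 16.7 CPM to 12.5, 11.2 and 11.01 CPM. In neither gene did the groups overlap, and the log2 fold changes were -0.63 ± 0.14 and -0.64 ± 0.11 (SE; edgeR, adjusted p = 0.00526 and 0.0017). The last enzyme genes of the arm rose by less. Mvd, the decarboxylase, had 42.3, 36.0 and 40.7 CPM in control and 55.6, 49.9 and 43.7 CPM in NETs-treated libraries, and Idi1, the isomerase, had 34.6, 40.2 and 40.1 CPM against 40.7, 52.3 and 50.7 CPM. Fdps, farnesyl diphosphate synthase, had 173, 170 and 169 CPM in control and 209, 191 and 206 CPM after NETs. Their log2 fold changes were 0.33 (adjusted p = 0.0315), 0.32 (adjusted p = 0.0419) and 0.24 (adjusted p = 0.0117) by edgeR. These 3 calls are the fragile ones of the branch. Without control replicate 2, and likewise without control replicate 3, none of them passed (adjusted p from 0.0558 to 0.126). The count of sterol enzymes that rose then went from 8 to 5. Exons of Fdps share 26.7% of their length with Gm43738 on the same strand, which had 0 counts in every library. How the overlap bears on the Fdps level was not tested.

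Fdft1, the enzyme that commits farnesyl diphosphate to sterols by forming squalene, showed the largest rise of all members. Control libraries held 45.6, 46.7 and 41.8 CPM of it, against 99.9, 105 and 110 CPM in NETs-treated libraries, a 2.34-fold rise with a log2 fold change of 1.23 ± 0.08 (SE; edgeR, adjusted p = 5.24e-06). The gene (ENSMUSG00000021273.11) spans chr14:63145150-63179578 on the minus strand of GRCm38. Its exons share 774 bases, 18.3% of their length, with Ctsb on the opposite strand, and the strand setting of the authors' counting is not given, so some of its reads could belong to Ctsb. Ctsb, the gene of the lysosomal protease cathepsin B, was far more abundant, with a control mean of 4298 CPM. It moved the other way, with a log2 fold change of -0.44 (adjusted p = 5.27e-05). What shared reads add to the Fdft1 value was not tested.

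The steps that follow squalene showed no common direction. Sqle, squalene epoxidase, had 80.4, 86.3 and 87.8 CPM in control and 80.7, 90.3 and 93.9 CPM in NETs-treated libraries. Lss, lanosterol synthase, had 55.4, 51.3 and 50.5 CPM against 57.5, 47.8 and 50.3 CPM. The groups of both genes overlapped, and the 95% intervals of the log2 fold change ran from -0.13 to 0.24 for Sqle and from -0.22 to 0.19 for Lss. Within the same libraries the ratio of Fdft1 to Sqle CPM was 0.477 to 0.568 in control and 1.16 to 1.24 after NETs. That ratio and the others within libraries given below were chosen after their values were seen and are descriptions.

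The demethylation of lanosterol starts with Cyp51, which had 36.2, 35.8 and 33.8 CPM in control and 31.1, 33.0 and 31.2 CPM in NETs-treated libraries. All NETs-treated libraries lay below the control libraries, yet the difference did not pass (log2 fold change -0.15, adjusted p = 0.139). Tm7sf2, a sterol reductase, was the least abundant tested member, at 3.92 to 6.28 CPM in control and 3.35 to 4.02 CPM after NETs, with overlapping groups. Its log2 fold change of -0.40 had a 95% interval from -0.93 to 0.12, the widest of the members. Exons of Tm7sf2 share 12.1% of their length with Vps51 on the same strand. Vps51 had a control mean of 47.5 CPM and a log2 fold change of -0.5 (edgeR, adjusted p = 0.00114). What shared reads add to the Tm7sf2 value was not tested. Nsdhl, the decarboxylating dehydrogenase, had 20.6, 25.9 and 23.7 CPM in control and 18.8, 20.4 and 16.4 CPM in NETs-treated libraries. At a log2 fold change of -0.33 it missed the threshold (adjusted p = 0.0537) and passed in 5 of 16 alternative analyses.

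Msmo1 and Hsd17b7, which act with Nsdhl in removing the methyl groups, rose. Msmo1, the methylsterol oxidase, went from 129, 135 and 138 CPM to 180, 205 and 243 CPM, a log2 fold change of 0.64 ± 0.11 (SE; edgeR, adjusted p = 0.00109). Hsd17b7, the ketosteroid reductase of these reactions, went from 14.0, 16.5 and 13.1 CPM to 25.9, 33.3 and 34.6 CPM. This was a 2.15-fold rise with separate groups, a log2 fold change of 1.11 ± 0.14 (SE; edgeR, adjusted p = 0.000276). Hsd17b7 (ENSMUSG00000026675.12) spans chr1:169949535-169969241 on the minus strand of GRCm38, and the promoter printed above precedes it.

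The enzymes that finish the sterol ring parted as well. Ebp, the sterol isomerase, went from 9.14, 8.03 and 10.6 CPM to 4.94, 5.29 and 5.34 CPM, 1.78-fold lower with separate groups (log2 fold change -0.83 ± 0.16, SE; edgeR, adjusted p = 0.0027). Sc5d, the desaturase after it, was at 58.5, 62.9 and 69.8 CPM in control and 64.7, 68.5 and 62.7 CPM in NETs-treated libraries, which overlapped (adjusted p = 0.753). Dhcr7, the reductase that makes cholesterol from its direct precursor, rose from 31.3, 29.7 and 27.2 CPM to 52.6, 46.0 and 46.3 CPM. Its log2 fold change was 0.72 ± 0.09 (SE; edgeR, adjusted p = 0.000285). The ratio of Dhcr7 to Ebp CPM was 2.58 to 3.71 in control and 8.67 to 10.7 in NETs-treated libraries. Over the whole sterol branch 8 of 18 members rose and 3 fell, and the median log2 fold change was 0.11. That is 61.1% called, against 52.7% of all tested genes, of which 25.5% were higher and 27.2% lower. With scaling by library size only, 5 sterol enzymes rose and 5 fell.

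**Figure D2:**
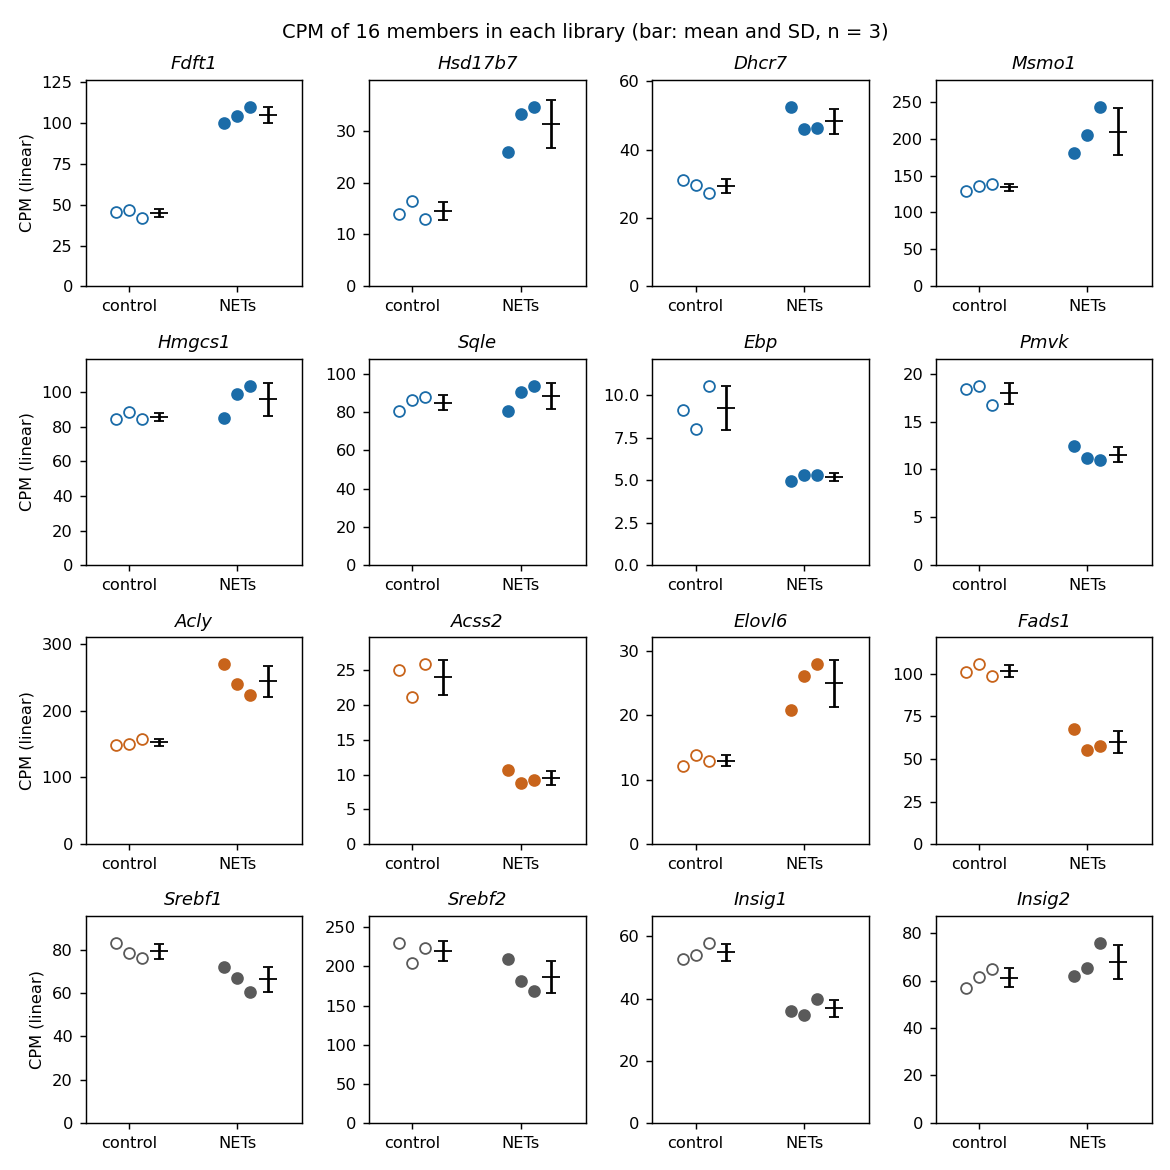
CPM (vertical axis, linear, from 0) of 16 members in each library; open points are control, filled points NETs-treated libraries, and the bars beside them the mean and SD (n = 3 each). Fdft1, Hsd17b7, Dhcr7, Msmo1, Acly and Elovl6 lie higher in all NETs-treated libraries, Ebp, Pmvk, Acss2, Fads1, Srebf1 and Insig1 lower, and Hmgcs1, Sqle, Srebf2 and Insig2 overlap.

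In the fatty acid branch, the genes of the enzymes that supply acetyl-CoA moved in opposite directions. Acly, which splits citrate to acetyl-CoA in the cytosol, rose from 148, 150 and 158 CPM to 269, 240 and 223 CPM. The groups did not overlap, and the log2 fold change was 0.68 ± 0.08 (SE; edgeR, adjusted p = 0.000177). Acss2, which makes acetyl-CoA from acetate, went from 25.1, 21.1 and 25.8 CPM to 10.7, 8.80 and 9.14 CPM, the largest fall of all members. It was 2.51-fold lower, a log2 fold change of -1.33 ± 0.13 (SE; edgeR, adjusted p = 6.37e-05), and the gene (ENSMUSG00000027605.18) spans chr2:155517948-155585724 on the plus strand of GRCm38. Within single libraries the ratio of Acly to Acss2 CPM was 5.92, 7.11 and 6.11 in control and 25.1, 27.3 and 24.4 after NETs, 4.01 times as high in the mean.

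The genes of the enzymes that build the chain did not pass the test. Acaca, acetyl-CoA carboxylase, had 65.7, 64.6 and 63.0 CPM in control and 69.4, 62.7 and 55.6 CPM in NETs-treated libraries (adjusted p = 0.718). Fasn, fatty acid synthase, had 171, 167 and 172 CPM against 198, 181 and 164 CPM, and its log2 fold change of 0.09 had a 95% interval from -0.09 to 0.27. The NETs-treated libraries of both genes lay on either side of the control libraries. Fasn passed as higher when counts were corrected for GC content (log2 fold change 0.21, adjusted p = 0.00722). Me1, the malic enzyme that supplies reducing power, fell from 154, 161 and 154 CPM to 124, 129 and 116 CPM (log2 fold change -0.34 ± 0.07, SE; edgeR, adjusted p = 0.00284).

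Of the 3 elongase genes among the members, whose products lengthen fatty acids, Elovl6 passed the test and Elovl1 and Elovl5 did not. Elovl6, which acts on palmitate, rose from 12.1, 13.8 and 12.9 CPM to 20.9, 26.1 and 27.9 CPM, a 1.93-fold rise with separate groups (log2 fold change 0.95 ± 0.13, SE; edgeR, adjusted p = 0.000446). Elovl1, which acts on very long chains, had 54.7 to 59.5 CPM in control and 52.8 to 61.4 CPM after NETs, and Elovl5, which acts on polyunsaturated chains, had 139 to 159 CPM and 144 to 162 CPM. The 95% intervals of their log2 fold changes ran from -0.18 to 0.20 and from -0.13 to 0.23. Whether Elovl6 differs from Elovl1 and Elovl5 in its response was not tested.

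Both desaturase genes with enough counts to be tested fell. Fads1, which inserts a double bond in the synthesis of arachidonic acid, went from 100.9, 106 and 99.0 CPM to 67.5, 55.1 and 57.4 CPM, 1.70-fold lower with separate groups (log2 fold change -0.76 ± 0.09, SE; edgeR, adjusted p = 0.000172). Scd2, a stearoyl-CoA desaturase, had the highest CPM of all members in control, at 379, 384 and 380 CPM, and 323, 322 and 307 CPM after NETs. Its fall was a log2 fold change of -0.26 ± 0.06 (SE; edgeR, adjusted p = 0.00427), but every NETs-treated library lay below every control library. Fads2, the partner of Fads1 in the same pathway, had 0 counts in all 6 libraries, which allows up to 0.0228 CPM over the control and 0.0246 CPM over the NETs-treated group (limit of 3 counts over a group, covering counting error only). Scd1, the stearoyl-CoA desaturase with a sequence close to that of Scd2, had 4, 0 and 8 counts in control and 0 in each NETs-treated library, and was too low to be tested. Set against that limit, its 12 control counts were 3.70 times as high, a ratio that leaves out the counting error of the control. Control replicate 2 was at 0 as well, and the authors' deposited adjusted p for Scd1 was 0.274 (DESeq2). How the authors' counting split reads between Scd1 and Scd2 is not stated. Among the 10 tested fatty acid genes 2 were called higher and 4 lower, which is 60% called, against 52.7% of all tested genes. Their median log2 fold change was -0.02, a sign that turned when some libraries were left out (-0.06 to 0.06).

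Of the 5 regulators 1 rose, 2 fell and 2 did not pass the test, and none changed 2-fold. That is 60% called, against 52.7% of all tested genes. Insig1, an SREBP target whose protein holds SCAP in the endoplasmic reticulum, fell from 52.7, 54.0 and 57.8 CPM to 36.0, 34.7 and 39.9 CPM. Its log2 fold change was -0.57 ± 0.08 (SE; edgeR, adjusted p = 0.000576), and the gene (ENSMUSG00000045294.11) spans chr5:28071363-28078662 on the plus strand of GRCm38. Insig2, its paralog with the same role, was at 57.0, 61.7 and 64.9 CPM in control and 61.9, 65.4 and 75.7 CPM after NETs, with overlapping groups (log2 fold change 0.15, adjusted p = 0.236). The ratio of Insig2 to Insig1 CPM was 1.08 to 1.14 in control and 1.72 to 1.90 in NETs-treated libraries.

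Scap, the escort, was at 64.8, 59.6 and 62.5 CPM in control and 79.1, 80.4 and 67.8 CPM after NETs, a log2 fold change of 0.28 (edgeR, adjusted p = 0.0231). Srebf1, which encodes SREBP1, had 82.9, 78.4 and 76.1 CPM and then 71.8, 67.0 and 60.2 CPM, a log2 fold change of -0.25 (adjusted p = 0.0328). Both calls are weak. Scap lost its call without control replicate 2, control replicate 3 or NETs-treated replicate 2 (adjusted p from 0.0724 to 0.0967). Srebf1 lost its call when any 1 library other than NETs-treated replicate 1 was left out (adjusted p from 0.0613 to 0.113), and with correction for GC content (log2 fold change -0.12, adjusted p = 0.0927). Srebf2, which encodes SREBP2, had 230, 205 and 224 CPM in control and 209, 181 and 168 CPM after NETs. It did not pass (log2 fold change -0.23, adjusted p = 0.0598) but did in 7 of 16 alternative analyses, always as lower. Among these 7, the Wald test of DESeq2 and the authors' deposited table gave the same values (log2 fold change -0.237, adjusted p = 0.0409). Stard4, whose product carries cholesterol between membranes, rose from 24.7, 29.0 and 26.4 CPM to 33.7, 34.5 and 44.1 CPM (log2 fold change 0.48 ± 0.12, SE; edgeR, adjusted p = 0.0104).

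Set per kilobase of annotated exon, which allows levels of different genes to be compared, Scd2 was the most abundant member in control (69.7 CPM per kb). Elovl5 (42.4), Me1 (40.6) and Fdps (40.5) followed at nearly equal levels in CPM per kb. After NETs Scd2 still led (58.1 CPM per kb), and Fdps (48.0) and Acly (46.3) came next. Fdft1 went from 10.6 to 24.8 CPM per kb and passed Hmgcs1 (18.7 and 20.9) and Sqle (15.3 and 15.9). The exon length joins all annotated transcripts, so a gene with rarely used exons comes out too low.

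The sterol and fatty acid branches were set against each other library by library. The median over the tested members of log2 CPM minus the control mean was -0.01 to 0.02 for sterol and -0.02 to 0.01 for fatty acid enzymes in control. In NETs-treated libraries 1 to 3 it was 0.06, 0.14 and 0.15 for sterol and 0.09, 0.00 and -0.17 for fatty acid enzymes. The difference between the branches was therefore -0.03, 0.13 and 0.32 in these libraries, and library 1 lay below the controls while the others lay above. The sterol median was higher in all NETs-treated than in all control libraries, whereas the fatty acid median and the difference between the branches were not separate. The sum of CPM over the sterol enzymes, which the abundant genes dominate, was 0.689 to 0.694 of that over the fatty acid enzymes in control and 0.814, 0.880 and 0.995 of it after NETs. No test was made over the lists, since their members had been chosen with earlier results of these data known.

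**Figure D3:**
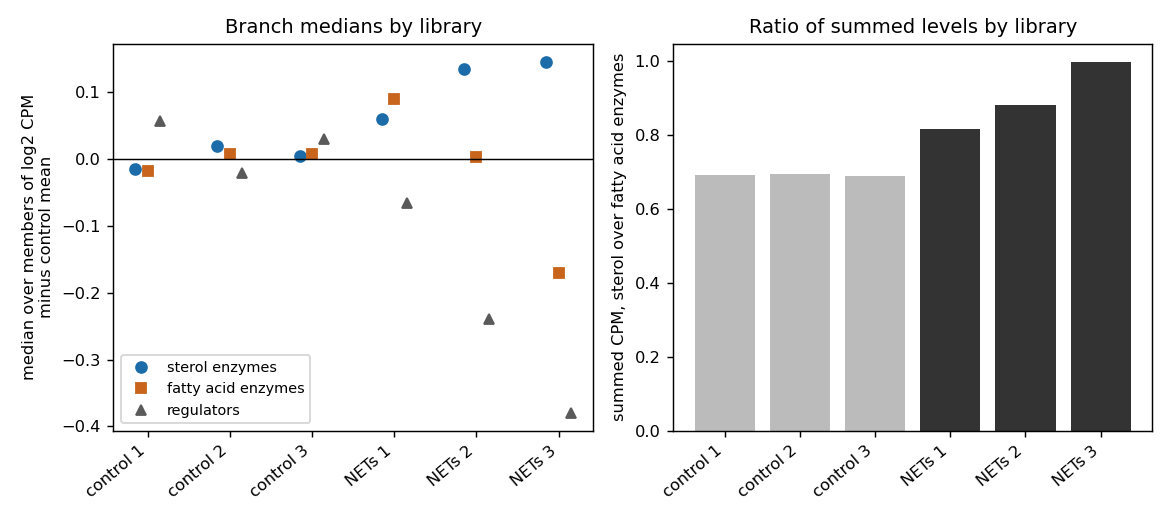
Left, the median over tested members of log2 CPM minus the control mean (vertical axis) in each library for sterol enzymes (circles), fatty acid enzymes (squares) and regulators (triangles). Right, the sum of CPM over sterol enzymes divided by that over fatty acid enzymes (vertical axis from 0) in each library; the ratio is at most 0.694 in control and at least 0.814 in NETs-treated libraries, while the medians of NETs-treated library 1 differ by only -0.03.

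Other genes of these pathways, 44 on lists of sterol handling, fatty acid handling and regulation, gave 40 tested genes, of which 6 rose and 14 fell. That is 50% called, against 52.7% of all tested genes, of which 25.5% were higher and 27.2% lower. On the sterol list 1 of 11 was higher and 4 lower (median -0.03 on the log2 scale). Soat1, which esterifies cholesterol for storage, had 448 ± 11.6 CPM in control and 258 ± 13.6 CPM after NETs (SD, n = 3), at a log2 fold change of -0.80. Tmem97, whose protein binds the cholesterol transporter NPC1, had 49.1 ± 1.80 and 19.1 ± 3.49 CPM, at -1.36 on that scale. Osbp, an oxysterol-binding lipid exchanger, had -0.26, a call lost in 5 of 16 alternative analyses. Ggps1, which takes farnesyl diphosphate to the geranylgeranyl lipid that anchors small GTPases, rose from 46.8 ± 0.88 to 70.8 ± 6.44 CPM. Fdft1 and Ggps1, whose products both draw on farnesyl diphosphate, were thus both higher.

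On the fatty acid list 3 of 17 tested genes were higher and 6 lower (median -0.27). That is 52.9% called, against 52.7% of all tested genes. Acsl4, which activates arachidonic acid and other long polyunsaturated acids, had 375 ± 15.8 CPM in control and 722 ± 65.2 CPM after NETs, at a log2 fold change of 0.95. Hacd3, a dehydratase of elongation, and Pgd, an enzyme of the pentose phosphate pathway, had 0.39 and 0.29. Among the falls, Mid1ip1, an activator of acetyl-CoA carboxylase, went from 51.5 ± 7.21 to 23.7 ± 2.56 CPM, while the elongase gene Elovl7 was at -0.73 and the acyltransferase gene Gpam at -0.39 on the log2 scale. Hacd3 lost its call in 1 and Gpam in 1 of the 16 alternative analyses.

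On the list of other regulators 2 of 12 tested genes were higher and 4 lower (median -0.25). That is 50% called, against 52.7% of all tested genes. Rnf145, a ubiquitin ligase that restrains SREBP processing, had 27.2 ± 1.01 CPM in control and 74.5 ± 1.82 CPM after NETs, at a log2 fold change of 1.45 ± 0.07 (SE; edgeR, adjusted p = 1.62e-06). Erlin1 and Erlin2, which encode partner proteins of the endoplasmic reticulum that bind cholesterol, went opposite ways, with log2 fold changes of -0.87 and 0.47. Their ratio, Erlin2 over Erlin1 CPM, was 0.322 to 0.331 in control and 0.728 to 0.980 after NETs. Mbtps2, the protease that makes the second cut in SREBPs, went from 100 ± 10.4 to 61.9 ± 6.07 CPM. Mlxipl, the gene of the glucose-sensing factor ChREBP, had 67 counts in the control group and 0 after NETs. Set against the limit of 3 counts over the group, its control level was 20.7 times as high, leaving out the counting error of the control.

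**Figure D4:**
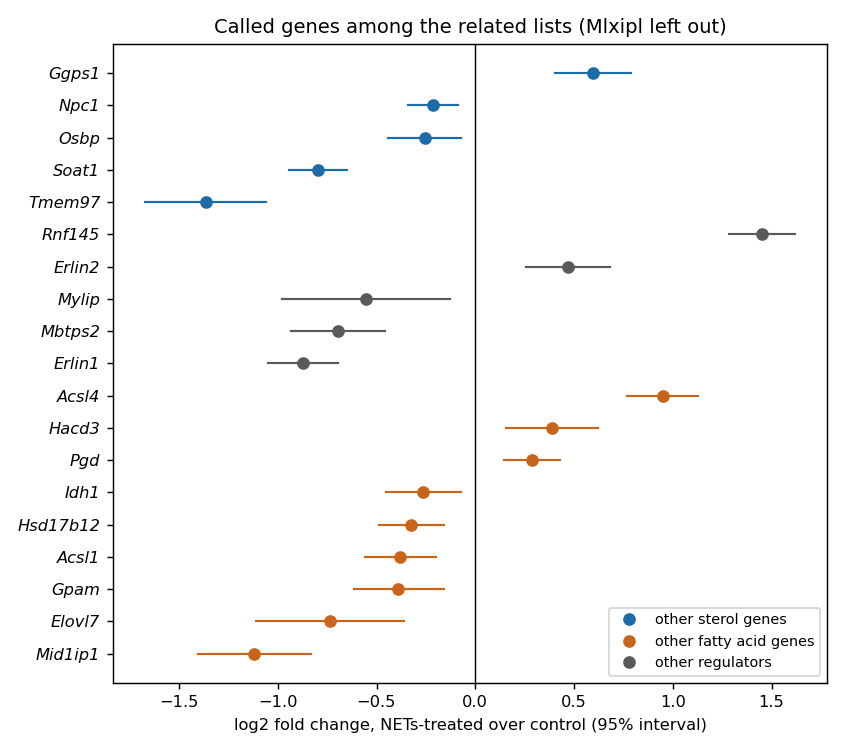
Log2 fold change (horizontal axis, NETs-treated over control) with 95% intervals of the called genes among the related lists, coloured by list; Mlxipl, at 0 counts after NETs, is left out. Rnf145 and Acsl4 lie farthest to the right and Tmem97 and Mid1ip1 farthest to the left.

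Total counts ran from 39994613 to 44274445 per library, and the members held 0.270% to 0.278% of them. The NETs-treated libraries varied more than the control libraries, with a median SD of log2 CPM of 0.18 against 0.11. Of 10 macrophage and microglia markers 2 rose and 6 fell; Lyz2, Cd14 and Cd68 were the most abundant, Cd14 going from a mean of 691 to 5442 CPM and Csf1r from 178 to 87.1 CPM. The summed level of the 10 markers was 6060 to 6230 CPM in control and 10700 to 10900 CPM after NETs. That rise came mainly from Cd14, so the sum does not stand for the list, most of which fell. Among homeostatic microglia markers, P2ry12 was at 0.878 CPM and Tmem119 at 1.44 CPM in control and Sall1 at 0 counts in all libraries; these 3 of 7 listed markers do not stand for the whole list, and the macrophage markers Aif1 and Mrc1 were at 0.672 and 0.979 CPM. Of 12 neutrophil markers 1 rose, 2 fell and 6 had no count in any library, among them S100a9, Ly6g and Mpo, and the list summed to 6.52 to 8.57 CPM in control and 10.9 to 16.8 CPM after NETs, S100a8 being the highest. T and NK cell markers were all at 0, and the fibroblast, B cell, erythroid, and hepatocyte and adipocyte lists each summed to at most 0.613 CPM. Their part in the values above was not tested, and in such bulk samples fewer cells of one kind and less RNA per cell cannot be told apart.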

How the data were processed

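Per the labels' protocols, strand-specific RNA-seq libraries were made of 3 NETs-treated and 3 control samples. HISAT2, DESeq2 and the builds mm10 and rn6 are named in the submitters' processing notes, without versions or roles. How reads were counted, with which strand setting and annotation, is not stated there. The authors deposited raw counts per gene, per the file headers, and normalised counts, a signal equal to the count divided by 1 size factor per sample. The deposited table also holds the authors' own log2 fold changes with their p-values, used here as an alternative.

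Counts were tested by quasi-likelihood in edgeR 4.0.16 (R 4.3.3; TMM scaling, no covariates, minimum count 10, minimum total 15), which kept 15272 genes with 99.9% of all counts. The SE is the fitted log2 fold change over the root of its F, and 95% intervals from the SE and the moderated degrees of freedom. In a simulation of this comparison (14856 genes), the test recovered 60.8% of 2-fold and 41.1% of 1.5-fold changes and called 10 of 14664 unchanged genes. Only 97 and 95 genes were changed in it, whereas 52.7% of tested genes were called in the data. The adjusted p is stricter when few genes change, so these shares cannot be carried over to the data. Library pairs of 1 group differed beyond sampling noise (chi-square per gene 9.38 to 70.8). Coordinates, exon lengths and GC content came from GENCODE M21 (GRCm38), where 55141 of the 55401 identifiers matched without their version.

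Alternatives were DESeq2 1.42.0 (size factors, and its Wald test), library-size and upper-quartile scaling, limma-voom 3.58.1, no filter, a filter of 1 CPM in 3 samples, a block for the replicate number, the omission of each library in turn, the deposited table, GC correction by lowess (span 0.3), and other branch memberships. The deposited table and the Wald test of DESeq2 gave the same median log2 fold change (-0.018) over 19669 genes, so they are not separate checks. Every member is named; of the related lists, the 3 largest called changes per direction; of marker lists, the 3 most abundant, where counted. Other genes named were chosen after their values were seen. The members and lists were chosen with earlier results of these data known. The summed level of the homeostatic microglia list is not reported here.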

Additional observations from a re-analysis of the deposited data

How the results depend on the processing

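Of the 21 called members, 16 kept their call and direction in all 16 alternative analyses: Acat2, Mvk, Pmvk, Fdft1, Msmo1, Hsd17b7, Ebp, Dhcr7, Acly, Acss2, Me1, Elovl6, Scd2, Fads1, Insig1 and Stard4. Mvd, Idi1, Fdps, Scap and Srebf1 each lost theirs in at least 3, and none of the 21 changed sign. With scaling by library size only, which moved the median of all genes to -0.09, 5 sterol enzymes rose, 5 fell and the sterol median log2 fold change was 0.034. That median was 0.053 with correction for GC content and 0.058 without Acat2. The count of sterol enzymes that rose ran from 5 to 8 when 1 library was left out, and the sterol median from 0.086 to 0.19. The fatty acid median ran from -0.061 to 0.061 in these analyses and from -0.094 to 0.013 in the others, so its sign was not stable. When 1 library was left out, the members higher ranged from 8 to 12 and those lower from 8 to 10. In the other analyses these ranges were 8 to 12 and 9 to 12. Over all alternatives that kept every library, fatty acid enzymes that fell stayed at 4.

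Sign changes occurred only among 6 members that did not pass the test. With scaling by library size only, the log2 fold change was -0.017 for Sqle, -0.04 for Sc5d, -0.069 for Elovl1 and -0.024 for Elovl5. Elovl1 was at -0.007 with upper-quartile scaling and at 0 with no filter, Lss at 0.017 with the filter of 1 CPM, and Sc5d at -0.066 with GC correction. When 1 library was left out, Lss ran from -0.075 to 0.058, Sc5d from -0.025 to 0.104, Elovl1 from -0.031 to 0.078 and Acaca from -0.104 to 0.044. The cause of these shifts was not tested.

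Same-numbered libraries of the groups did not deviate together in every pair (correlations of 0.21, 0.03 and 0.08), and 3 of the 6 libraries correlated best with their own number. With the replicate number as a block, 12 members were higher and 10 lower; Srebf2 was added (adjusted p = 0.0292). Scd1 and Fads2 had too few counts to be tested.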

Other observations

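Further ratios of member CPM within single libraries, chosen after their values were seen and given without a test, set pairs of members side by side. The ratio of Hsd17b7 to Nsdhl was 0.679, 0.637 and 0.552 in control and 1.38, 1.63 and 2.11 in NETs-treated libraries, 2.74 times as high in the mean. Elovl6 over Fads1 gave 0.120, 0.131 and 0.131 in control and 0.309, 0.474 and 0.486 after NETs. Fdft1 over Fdps, the enzyme before it, gave 0.248 to 0.275 in control and 0.477 to 0.548 after NETs. Scd2 over Fasn went the other way, from 2.21 to 2.30 in control against 1.64 to 1.88 after NETs. The groups did not overlap in any of these 4 ratios.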
